A study of Capra hircus with 3 samples.

Results

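Mitochondrial ribosomal proteins are encoded in the nucleus, made in the cytosol and imported into the mitochondrion, where they form the ribosome that translates the genes of mitochondrial DNA. All protein products of those genes are subunits of the oxidative phosphorylation complexes, so the ribosome is part of how a muscle fibre builds its respiratory chain. Proteins whose names carry an L were assigned to the large subunit, which joins amino acids into a chain, and those with an S to the small subunit, which reads the messenger RNA. The proteins were taken from the deposited expression table as every entry whose product text starts with that family name and a subunit letter, leaving out entries described as "-like". This gave 72 of 24689 entries, 46 named for the large and 26 for the small subunit. Of these, 70 had a symbol in the reference gene table. The 2 without one are the entries named here MRPL3 and MRPS36 from their product text. Another 2 are annotated as pseudogenes (of MRPL13 and of MRPS18C).

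Messenger RNA was sequenced from the longissimus dorsi, the long back muscle, of goats (Capra hircus) at 3 postnatal ages: 2 months (kid), 9 months (youth) and 24 months (adult). There was 1 library for each, so no difference below has a replicate check and no test between stages was made. No treatment or genotype was given for any stage, and sex, breed and whether a library was 1 animal or a pool were not given in the sources used here. The tissue label names longissimus dorsi, while the extraction protocol of all 3 libraries names mammary tissue. All 7 skeletal muscle markers looked for were abundant, summing to between 52959 and 71302 FPKM per library. Of 10 mammary epithelial markers, 9 had an entry and 7 of these were at 0 in all 3 libraries, among them the 4 casein genes CSN1S1, CSN1S2, CSN2 and CSN3 and the milk protein gene LALBA.

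Values are FPKM, reads scaled to gene length and to the library's mapped total, which can be compared between genes. The totals behind the FPKM values, worked out from the steps between low values, were 15829474, 14920689 and 18399385 reads in kid, youth and adult, and 3 reads in a gene of 1 kb correspond to 0.190, 0.201 and 0.163 FPKM. All 72 entries were above 0 in every library and gave whole reads. A ratio is given with the exact 95% interval of the 2 libraries' reads, which covers counting error only. "Beyond counting error" below means that this interval left out 1. At the same ratio, genes with more reads pass this more often. The median member was more abundant than the median gene (29.3 against 8.18 FPKM in kid). The shares of all genes beyond counting error given below are not matched for abundance, for the members or for the other lists. Differences were taken on the log2(FPKM + 1) scale among the 12121 genes of the table with a mean of at least 1 FPKM, which 71 of the 72 proteins passed; the exception was the MRPL13 pseudogene, with 9, 3 and 6 reads in kid, youth and adult. Each library enters 2 of the 3 comparisons, so the comparisons are not independent of each other.

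Transcripts of the family were slightly lower in the youth library than in the kid library and more abundant in the adult library than in either. The summed FPKM of the 71 members was 2458 in kid, 2262 in youth and 2835 in adult, or 0.466%, 0.434% and 0.521% of all FPKM. The median member had 29.3 FPKM in the kid library, 26.5 in the youth library and 35.4 in the adult library. For comparison, the median of all 12121 genes was 8.18, 7.61 and 7.46 FPKM, highest in kid. In whole muscle, fewer cells of a type and less RNA per cell cannot be told apart.

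The adult library was the highest of the 3 for 55 of 71 members, against 30.0% of all genes. The youth library was the lowest for 49 of 71, against 37.3% of all genes. Under 3 other scalings of the libraries, adult was the highest for 48 to 60 of 71 members and youth the lowest for 39 to 45, where the shares of all genes were 25.1% to 38.0% and 31.6% to 32.6%. The order youth, kid, adult from low to high was the most frequent and held for 39 of the 72 entries (54.2%, against 19.9% of all genes), followed by kid, youth, adult for 16 (22.2%, against 10.1%) and youth, adult, kid for 11 (15.3%, against 17.3%). A step down to youth and a step up to adult, each beyond counting error, was seen in 25 members (15 large, 10 small) and in 10.8% of all genes. The opposite shape, up and then down beyond counting error, was seen in no member and in 913 of 12121 genes.

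**Figure D1:**
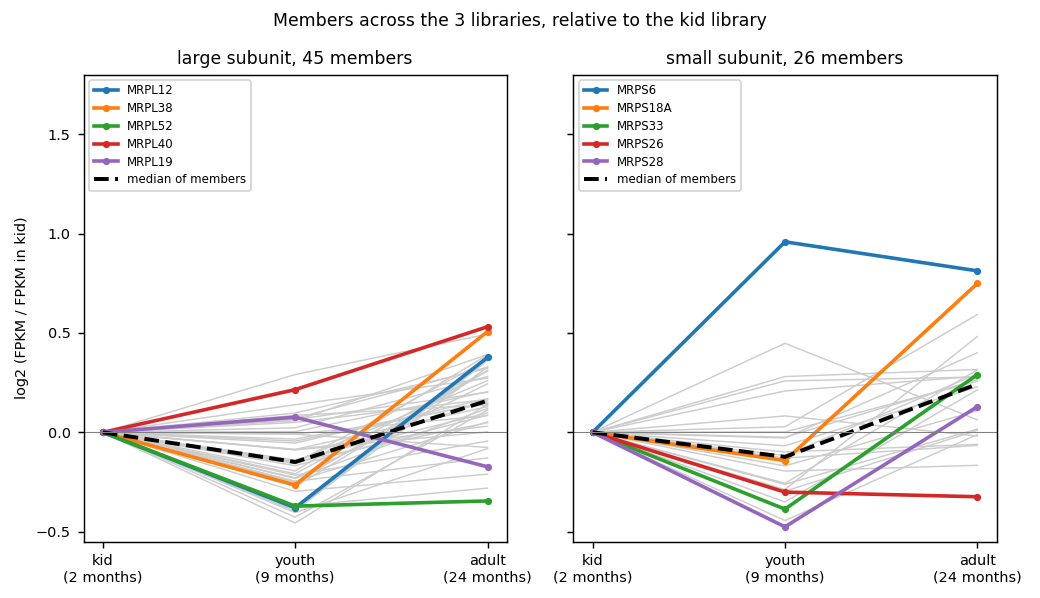
Each line is 1 mitochondrial ribosomal protein, drawn as the log2 ratio of its FPKM to its own value in the kid library, with the large subunit on the left (45 members) and the small on the right (26); the dashed line is the median. Most lines dip in youth and lie above 0 in adult, while MRPS6 stands apart at 1.94-fold of its kid value in youth.

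Without the pseudogenes, levels spanned about the same range in every library, from 8.25 to 125 FPKM in kid, 6.95 to 108 in youth and 7.55 to 122 in adult. In the large subunit the most abundant transcript was MRPL33, a small protein with a bacterial counterpart, with 125, 108 and 122 FPKM in kid, youth and adult. It was followed at a distance by MRPL21 (68.9, 57.1 and 85.5 FPKM), MRPL39 (67.1, 63.1 and 68.5), MRPL14 (56.9, 57.8 and 69.1) and MRPL37 (60.7, 54.5 and 67.8). MRPL33 differed little between kid and adult, with a ratio of 0.970 (0.893 to 1.05), whereas MRPL21 was 1.24-fold higher in adult than in kid (1.12 to 1.37). MRPL39 stayed within counting error in all 3 comparisons.

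In the small subunit MRPS15, MRPS33 and MRPS18A stood above the others in the adult library. MRPS15, which binds the small ribosomal RNA, had 102 FPKM in the kid library, 91.0 in youth and 110.3 in adult. MRPS33, a protein of the head of the small subunit with no bacterial counterpart, stood at 96.0, 73.4 and 117 FPKM. MRPS23 (62.3, 45.8 and 61.8 FPKM) and MRPS5 (52.0, 51.1 and 62.5 FPKM) came next. MRPS33 and MRPS23 both had their lowest value in youth by a clear margin, while MRPS5 was within counting error between kid and youth (ratio 0.983, 0.904 to 1.07) and higher in adult.

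At the low end of the large subunit were MRPL30 (8.25, 6.95 and 7.55 FPKM in kid, youth and adult), MRPL46 (10.7, 11.0 and 11.97) and MRPL32 (13.4, 9.93 and 14.4), and in the small subunit MRPS26 (12.7, 10.3 and 10.1), MRPS30 (14.2, 17.3 and 17.7) and MRPS28 (16.8, 12.1 and 18.4). MRPL32, whose precursor is cut by the inner-membrane m-AAA protease before it joins the ribosome, was 1.34-fold lower in youth than in kid (1.05 to 1.72), and MRPL30 and MRPL46 stayed within counting error throughout. The pseudogene entries were lower still. The MRPL13 pseudogene stood at 1.41, 0.498 and 0.807 FPKM, and the MRPS18C pseudogene at 3.69, 5.03 and 3.85 FPKM from 14, 18 and 17 reads. All ratios of both entries were within counting error.

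**Figure D2:**
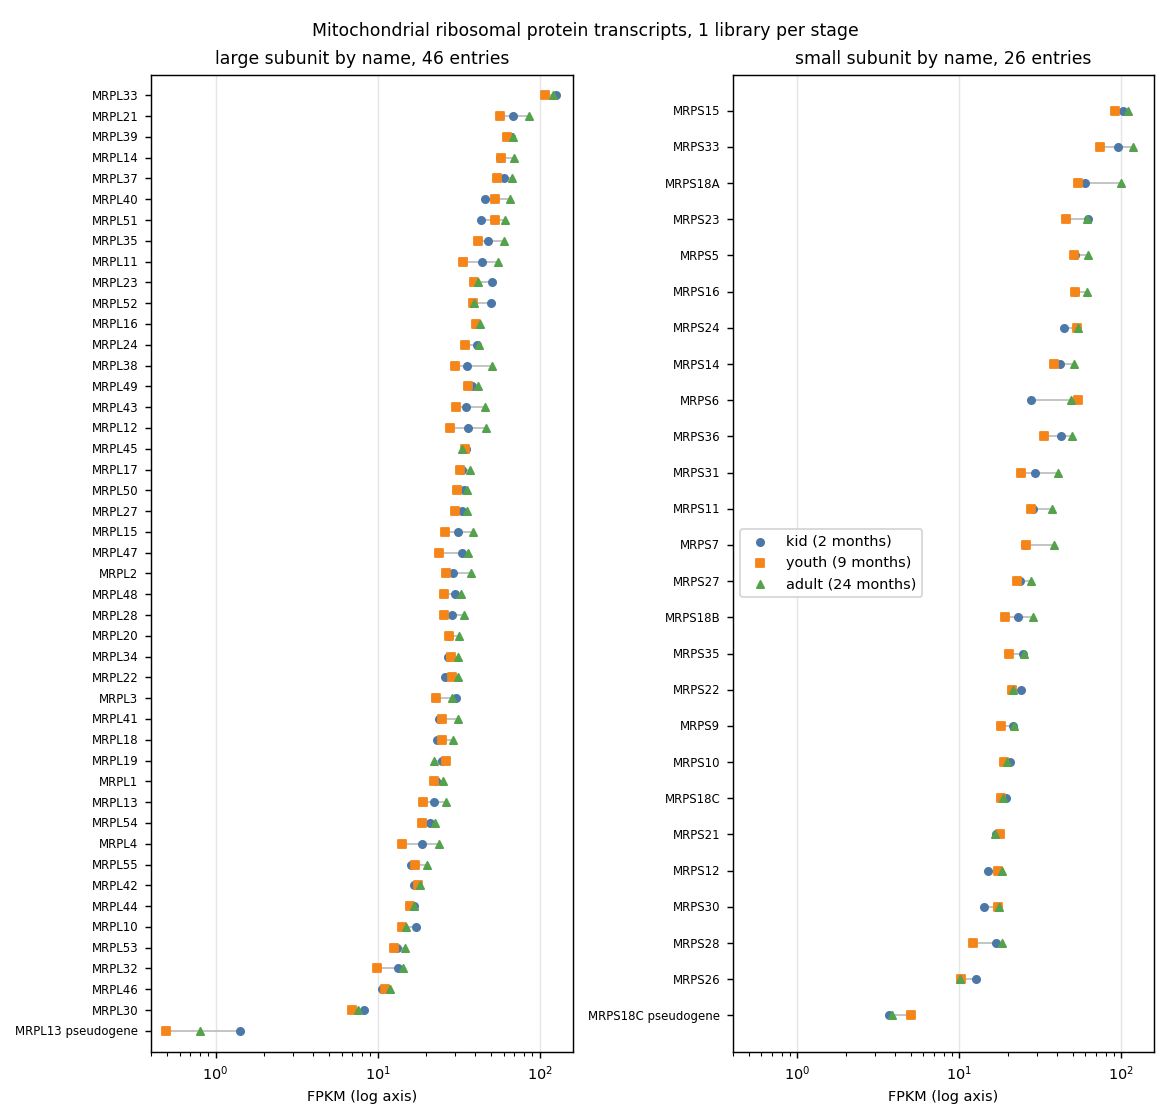
FPKM of all 72 entries on a log axis, sorted by mean within each subunit, with 1 marker per library (circle kid, square youth, triangle adult). The triangles lie farthest right for most entries, and the levels run from the MRPL13 pseudogene, below 1.5 FPKM throughout, to MRPL33 at 108 FPKM or more.

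The step from kid to youth was small, and mostly downward in FPKM as deposited. On the log2(FPKM + 1) scale the median difference of the 71 members was -0.14, beside -0.08 for all genes, and 20 members were higher and 51 lower, where 35.7% of all genes were higher. Counted as apart where the difference on this scale was 0.32 or more, 12 members were lower (14.9% of all genes) and 2 higher (6.02% of all genes). Lower beyond counting error were 28 members, against 26.9% of all genes, higher beyond it 5, against 11.6%, and 38 were within it. Under median-of-ratios scaling the median was -0.048, with 31 members higher and 40 lower, of which 5 were higher and 3 lower by 0.32 or more. The share of members counted as lower by 0.32 or more, 16.9%, is near that of all genes. By that cut the family differs little from the table at this step. The share lower beyond counting error, 39.4%, is above that of all genes, but this measure also depends on abundance.

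MRPS28, a relative of bacterial S1, was the lowest at this step, at 16.8 FPKM in kid and 12.1 in youth, 1.39-fold lower (1.096 to 1.77). MRPL47, at the mouth of the exit tunnel, was 1.37-fold lower (33.0 against 24.0 FPKM, 1.20 to 1.57), and MRPS23 was 1.36-fold lower (1.22 to 1.52). These values and that of MRPL32 differ by less than their intervals are wide, so their order is not resolved.

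The exception in the other direction was MRPS6, a protein of the platform of the small subunit. It had 27.7, 53.9 and 48.7 FPKM in kid, youth and adult, from 315, 577 and 643 reads. The youth library was thus 1.94-fold above kid (1.69 to 2.24) and the adult library 1.76-fold above kid (1.53 to 2.02), while adult and youth were within counting error (ratio 0.904, 0.806 to 1.01). MRPS6 is known to share its locus with SLC5A3, an inositol transporter gene, in other mammals. SLC5A3 was at 3.16, 4.61 and 2.95 FPKM in kid, youth and adult, higher in youth than in kid by 1.46-fold (1.13 to 1.89) and lower again in adult. Whether reads of the pair were shared in the authors' counting was not tested.

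The remaining members higher in youth than in kid beyond counting error were MRPL51 (43.6 against 53.3 FPKM, 1.22-fold), MRPS30 (1.21-fold), MRPS24 (44.3 against 53.0 FPKM, 1.20-fold) and MRPL40 (45.7 against 53.1 FPKM, 1.16-fold). MRPS24 is named here because it completes this group of 5, outside the naming rule. MRPS30 and MRPS24 were then within counting error between youth and adult. MRPL40 and MRPL51 went on to 66.1 and 61.4 FPKM in adult, 1.245-fold (1.12 to 1.38) and 1.15-fold (1.04 to 1.28) above youth. No member was 0.32 or more apart in the same direction at both steps.

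From youth to adult nearly the whole family was higher. The median member differed by 0.25 on that scale while the median gene differed by -0.02, and 65 members were higher and 6 lower, where 47.3% of all genes were higher. Higher by 0.32 or more were 24 members, or 33.8%, against 15.7% of all genes, and none was lower by that much, against 16.6% of all genes. Higher beyond counting error were 45 members, against 22.3% of all genes, and lower beyond it 1, against 27.0%. The remaining 25 were within counting error.

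MRPS18A had the widest difference between youth and adult. It had 59.5, 53.9 and 100.1 FPKM in kid, youth and adult, from 884, 755 and 1727 reads, so that adult was 1.85-fold above youth (1.70 to 2.02) and 1.68-fold above kid (1.55 to 1.82). MRPL38, which belongs to the central protuberance of the large subunit, stood at 35.9, 29.9 and 51.0 FPKM, 1.71-fold higher in adult than in youth (1.55 to 1.89). MRPS31, a protein of the head of the small subunit, stood at 29.3, 24.0 and 40.9 FPKM, also 1.71-fold (1.53 to 1.91). MRPL12, the stalk protein that contacts translation factors and has also been described as binding the mitochondrial RNA polymerase, stood at 36.2, 27.8 and 47.0 FPKM, 1.69-fold (1.52 to 1.88). The intervals of these 4 overlap, and in each of them the youth library was the lowest and the adult library the highest.

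The 6 members without a higher adult value were few and mostly close to 1. MRPL19, at the face where the subunits meet, was the one member lower in adult than in youth beyond counting error: it had 25.1, 26.5 and 22.3 FPKM in kid, youth and adult, with an adult to youth ratio of 0.841 (0.741 to 0.955). MRPS21 (16.9, 17.9 and 16.7 FPKM; ratio 0.932, 0.829 to 1.05) and MRPS26 (ratio 0.984, 0.717 to 1.35) were within counting error, as were MRPS6 and the MRPS18C pseudogene. The sixth, MRPL45, which tethers the ribosome to the inner membrane, had nearly equal values of 35.1, 34.9 and 33.3 FPKM; it is named to complete the group, after its values were seen.

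**Figure D3:**
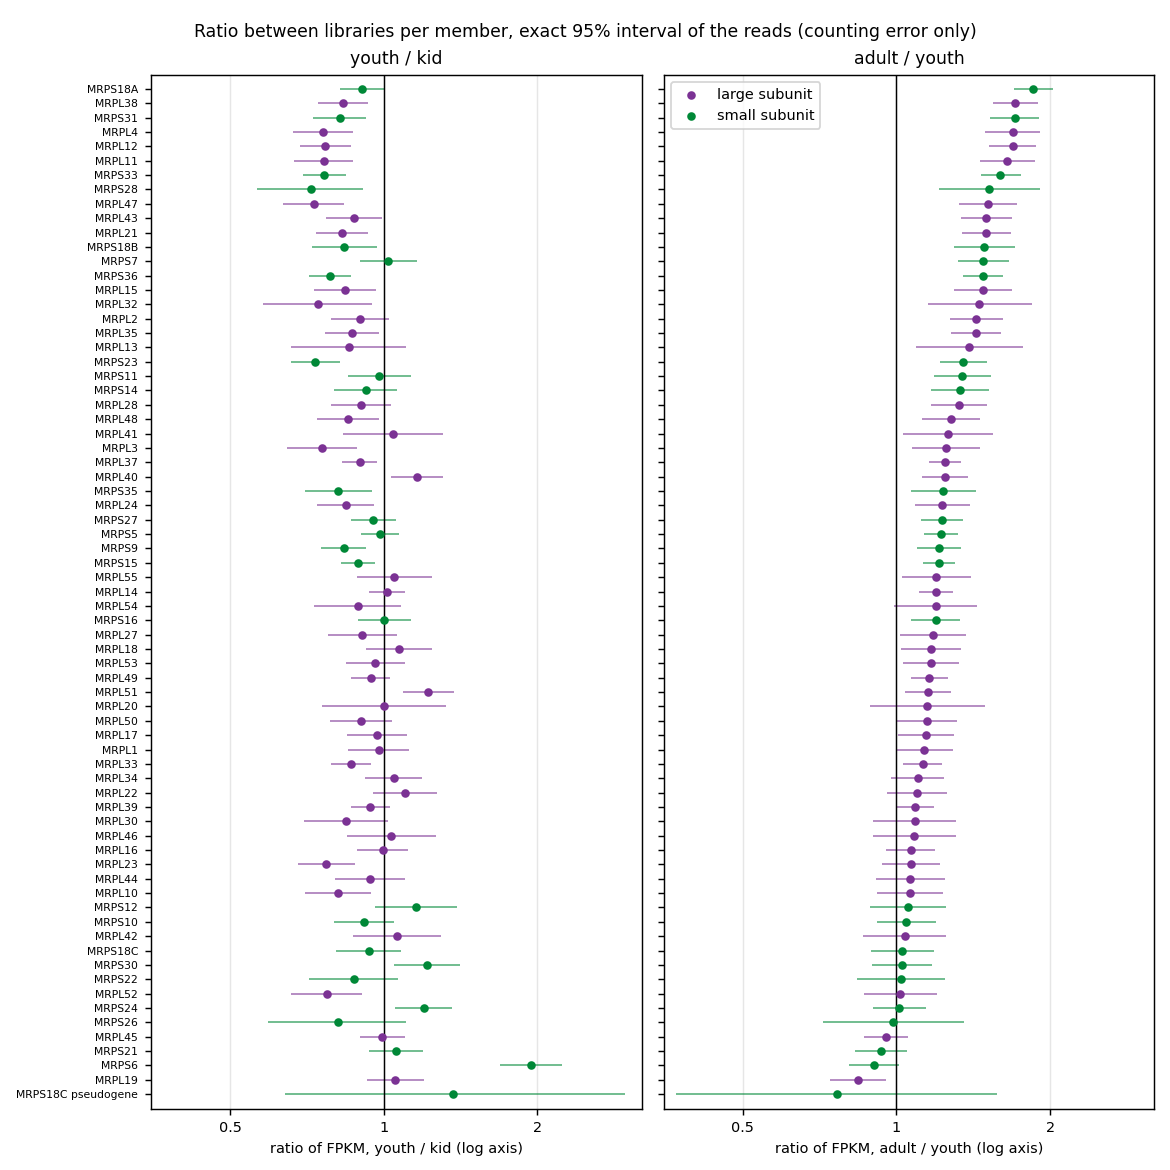
Ratio of FPKM for youth over kid (left) and adult over youth (right) on log axes, with the exact 95% interval of the reads as a bar, for the 71 members sorted by the adult over youth ratio; purple marks the large and green the small subunit. On the right most points lie above 1, up to 1.85 for MRPS18A, while on the left they scatter around and below 1 with MRPS6 at 1.94.

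Between the youngest and the oldest library the family was higher in adult. The median difference was 0.16, beside -0.10 for all genes, and 57 members were higher and 14 lower, where 37.5% of all genes were higher. Higher by 0.32 or more were 14 members (9.71% of all genes), and lower by that much was 1 (22.4%). Higher beyond counting error were 36 members (16.7% of all genes), lower beyond it 3 (34.6%), and 32 were within it. Under median-of-ratios scaling the median of all genes was near 0 (0.0012), that of the members was 0.27, and 33 members were higher by 0.32 or more. Beside MRPS6 and MRPS18A, the largest adult to kid ratios were those of MRPS7, which lies in the head of the small subunit near the messenger RNA path (25.5, 26.0 and 38.4 FPKM in kid, youth and adult, ratio 1.51, 1.35 to 1.69), and of MRPL40 (ratio 1.45, 1.30 to 1.61). MRPS7 was within counting error between kid and youth (ratio 1.02, 0.897 to 1.16), and its difference lay between youth and adult.

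In FPKM as deposited, the 3 members lower in adult than in kid beyond counting error were all in the large subunit. Median-of-ratios scaling shifted the median of all genes by 0.097 in this comparison. The intervals were not recomputed under it, and that of MRPL10 ends close to 1. MRPL52 had 50.02, 38.7 and 39.4 FPKM in kid, youth and adult (1.27-fold lower in adult than in kid, 1.09 to 1.48). MRPL23, beside the exit tunnel, stood at 51.0, 39.4 and 42.0 FPKM (1.21-fold lower, 1.08 to 1.37), and MRPL10, which anchors the stalk, at 17.4, 14.1 and 15.0 FPKM (1.16-fold lower, 1.01 to 1.33). In all 3 the lower value was reached in the youth library, and adult and youth were within counting error. MRPS26 had a like pattern, 1.252-fold lower in adult than in kid, but its interval (0.929 to 1.68) took in 1.

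The subunits had similar medians at every step. The median difference from kid to youth was -0.14 for the 45 members of the large subunit and -0.12 for the 26 of the small subunit; from youth to adult it was 0.23 and 0.28, and from kid to adult 0.15 and 0.24. The large minus small gaps of -0.03, -0.05 and -0.08 are narrow beside the quartiles of the members, which for adult against youth ran from 0.13 to 0.45 in the large and from 0.03 to 0.52 in the small subunit. Higher in adult than in youth were 43 of 45 and 22 of 26 members (47.3% of all genes), and higher beyond counting error 29 and 16 (22.3%). Lower in youth than in kid were 33 of 45 and 18 of 26, beside 7799 of all 12121 genes. Of these members, 18 and 10 were beyond counting error (26.9% of all genes). The youth library was the lowest for 32 of 45 and 17 of 26 members (37.3% of all genes), and the adult library the highest for 37 and 18 (30.0%).

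Over all members tested, the median level of the large subunit was above that of the small subunit. It was 31.2 against 25.2 FPKM in kid, 27.8 against 23.3 in youth and 35.4 against 33.0 in adult. The ratio of the medians was 1.24, 1.19 and 1.07. The adult order rests on the MRPS18C pseudogene. Without it the small-subunit medians were 25.5, 24.0 and 37.4 FPKM in kid, youth and adult, so the small subunit was the higher in adult. Summed FPKM of the large subunit was 1558, 1420 and 1753 and that of the small subunit 900, 842 and 1082, so the adult sum was 1.23 times the youth sum in the large and 1.29 times in the small subunit. The 2 subunits are present once each in a ribosome, but FPKM measures transcripts and not proteins.

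By name the subunit is not always the place. MRPS18A and MRPS30 carry the S of the small subunit and are found in the large subunit of the mammalian ribosome. MRPS18A is 1 of 3 paralogs related to a single bacterial protein, with MRPS18B and MRPS18C, which sit in the small subunit. The 3 differed in their course. MRPS18A had its adult value at 100.1 FPKM and its youth value at 53.9. MRPS18B stood at 22.9, 19.2 and 28.5 FPKM in kid, youth and adult, with an adult to youth ratio of 1.49 (1.30 to 1.70). MRPS18C stood at 19.3, 18.0 and 18.5 FPKM, with a ratio of 1.03 (0.890 to 1.19), so its interval does not reach those of the other paralogs. MRPS18C also has a pseudogene entry, and reads could have been exchanged between them. MRPS36, counted here by its name, is now known as a subunit of the 2-oxoglutarate dehydrogenase complex and not of the ribosome; it stood at 42.5, 33.3 and 49.3 FPKM and followed the same course as most of the family.

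The mammalian mitochondrial ribosome has kept part of the bacterial protein set and gained proteins of its own. Members with a bacterial counterpart (43) and without one (27, MRPS36 among them) had close medians when the subunits were pooled. From kid to youth these were -0.14 and -0.14, from youth to adult 0.26 and 0.24, and from kid to adult 0.23 and 0.15. Higher in adult than in youth were 40 of 43 and 25 of 27 (47.3% of all genes). Within a subunit the kid to youth medians were farther apart, and in opposite directions. They were -0.21 with and -0.08 without a counterpart in the large subunit (27 and 18 members), and -0.06 and -0.28 in the small subunit (16 and 9 members). The 9 include MRPS36 and MRPS30, and MRPS30 was the only 1 of them higher in youth than in kid. These groups were assigned after the values had been seen, and the split was not tested.

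By place in the ribosome, as assigned from general knowledge of its structure after the values had been seen, the members were grouped into 6 places. The stalk recruits translation factors, and its members are MRPL10, MRPL11, MRPL12, MRPL53 and MRPL54. In youth 5 of 5 were lower than in kid (median -0.28), beside 7799 of all 12121 genes. In adult 5 of 5 were higher than in youth (median 0.24), beside 47.3% of all genes. With quantile normalization or median-of-ratios scaling, 4 of 5 were lower in youth than in kid. MRPL11 stood at 44.3, 33.8 and 55.6 FPKM, 1.65-fold higher in adult than in youth (1.46 to 1.87), close to MRPL12. MRPL53 and MRPL54 moved less, with adult to youth ratios of 1.17 and 1.19.

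The head of the small subunit, through which messenger RNA and transfer RNA pass, held MRPS7, MRPS9, MRPS10, MRPS14, MRPS24, MRPS31, MRPS33 and MRPS35. All 8 were higher in adult than in youth (median 0.35), beside 47.3% of all genes. Of these, 6 were beyond counting error (22.3% of all genes). With quantile normalization, or scaled to the mean FPKM sum, 7 of 8 were higher. They ranged from MRPS31 (1.71-fold) and MRPS33 (1.60-fold, 1.46 to 1.75) down to MRPS10 (1.05-fold) and MRPS24 (1.01-fold). The platform of the small subunit held MRPS6, MRPS11, MRPS15, MRPS18C and MRPS21. Of these 5, 3 were higher in adult than in youth (median 0.04), near the share of all genes (47.3%). Beyond counting error were 2 of them, MRPS11 and MRPS15 (22.3% of all genes). The platform median was -0.023 when libraries were scaled to the mean FPKM sum.

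In the large subunit, the central protuberance held 6 members (MRPL18, MRPL27, MRPL38, MRPL40, MRPL46 and MRPL48). All 6 were higher in adult than in youth (median 0.27), beside 47.3% of all genes. At the step before, 3 were higher and 3 lower, where 35.7% of all genes were higher. The 8 members around the exit tunnel, through which the new chain leaves, were MRPL4, MRPL22, MRPL23, MRPL24, MRPL39, MRPL44, MRPL45 and MRPL47. Their median from youth to adult was 0.12, and 7 of them were higher (47.3% of all genes). Within that group MRPL4, in the tunnel wall, was 1.69-fold higher (14.2 to 24.0 FPKM, 1.49 to 1.91) and MRPL47 1.51-fold higher (1.33 to 1.73), and MRPL45 was not higher. The 5 members at the peptidyl transferase core and the subunit interface (MRPL2, MRPL3, MRPL14, MRPL16 and MRPL19) had a median of 0.25, with MRPL2 at a ratio of 1.43 (1.27 to 1.62) and MRPL19 below 1. With 5 to 8 members per place, and members of 1 place differing as widely as the places do, no order of the places can be read from these values.

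Proteins of the mitochondrial ribosome that carry other names were also lowest in youth. CHCHD1, DAP3, PTCD3, AURKAIP1 and MRPL58 were looked for with 4 more that had no matching entry. In youth all 5 were lower than in kid (median -0.21), beside 7799 of all 12121 genes, and 4 of 5 were under median-of-ratios scaling. In adult all 5 were higher than in youth (median 0.21), beside 47.3% of all genes. In each case 3 were beyond counting error (26.9% and 22.3% of all genes). MRPL58, a peptidyl-tRNA hydrolase built into the large subunit, stood at 51.8, 41.5 and 50.3 FPKM. PTCD3, which binds near the messenger RNA entry, stood at 25.5, 21.9 and 28.5 FPKM, and DAP3, a GTP-binding protein of the small subunit, at 11.1, 8.83 and 10.2 FPKM. Their adult values were close to those in kid (median difference -0.04, and 0.07 under median-of-ratios scaling).

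The wider machinery of mitochondrial translation was also lower in youth than in kid and higher in adult than in youth at the median. In FPKM as deposited it was nearer to the kid level in adult than the ribosomal proteins were. From kid to adult the medians were 0.08 for translation factors (11 of 17 higher), 0.04 for synthetases (10 of 20) and 0.08 for assembly factors (21 of 28). For the ribosomal proteins the median was 0.16 (57 of 71), and for all genes -0.10 (37.5% higher). With quantile normalization the list medians were 0.11 (13 of 17), 0.16 (14 of 20) and 0.19 (24 of 28). The ribosomal proteins then had 0.21 (60 of 71), and all genes -0.0008 (6039 of 12121). The gap for synthetases and assembly factors thus depended on the scaling. Mitochondrial translation factors (17 of 21 looked for) had a median of -0.15 from kid to youth and 0.27 from youth to adult, where 17 of 17 were higher (47.3% of all genes) and 10 beyond counting error (22.3% of all genes). MRPL58, given above among the proteins of the ribosome, is also in this list, and its difference is the median from youth to adult. The most abundant was SLIRP, which stabilises mitochondrial messenger RNA, at 107, 95.5 and 120.0 FPKM. MRRF, the ribosome recycling factor, showed the least adult increase, at 5.27, 4.26 and 4.30 FPKM. Mitochondrial aminoacyl-tRNA synthetases and their partners (20 of 20) had medians of -0.17 and 0.21, with 16 of 20 higher in adult than in youth; MARS2 had the highest ratio (2.32 to 3.54 FPKM, 1.53-fold) and WARS2 the lowest (4.07 to 3.64 FPKM). Assembly factors and modifiers of the ribosomal RNA (28 of 34) had medians of -0.11 and 0.21, with 23 of 28 higher. Among them YBEY, an RNA-processing enzyme, stood at 9.08, 4.88 and 7.81 FPKM, and MPV17L2, an assembly protein, at 3.83, 2.96 and 4.98 FPKM.

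The ribosome makes some subunits of the oxidative phosphorylation complexes, and a list of nuclear genes of oxidative phosphorylation showed a larger step. The list is not confined to complexes that receive subunits from this ribosome, and it holds no genes listed under complexes III and IV. For 57 nuclear genes listed under complexes I, II and V (of 93 symbols looked for, the others having no entry under that symbol), the median difference was -0.19 from kid to youth, 0.45 from youth to adult and 0.30 from kid to adult. Higher in adult than in youth were 57 of 57 (47.3% of all genes), 56 of them beyond counting error (22.3% of all genes). The median adult difference of the mitochondrial ribosomal proteins (0.25) lay between this and all genes (-0.02). The most abundant entry in the list was NDUFA4, named for complex I but now known as a subunit of complex IV, at 866, 671 and 1023 FPKM. ATP5G1, a subunit of the ATP synthase ring, had the highest ratio of adult to youth, at 298 and 542 FPKM (1.82-fold). No entry matched any of the 15 genes of mitochondrial DNA looked for, so the messages that this ribosome translates are not analysed here.

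Cytosolic ribosomal proteins, which build the other ribosome of the cell, took the opposite course from youth to adult. Of 71 genes, 66 were lower in youth than in kid (median -0.22), beside 7799 of all 12121 genes (median -0.08). From youth to adult, 56 were lower (median -0.11), beside 6382 of all 12121 genes (median -0.02). Of these 56, 42 were beyond counting error (27.0% of all genes). RPL3 stood at 132, 100.2 and 74.9 FPKM and RPS29 at 1269, 793 and 723 FPKM. The median cytosolic gene was 17.1 times the median mitochondrial one in kid, 16.99 times in youth and 12.2 times in adult. Many near-identical copies of cytosolic ribosomal protein genes exist, and how the authors' counting treated reads that match several places was not given in the sources used here.

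**Figure D4:**
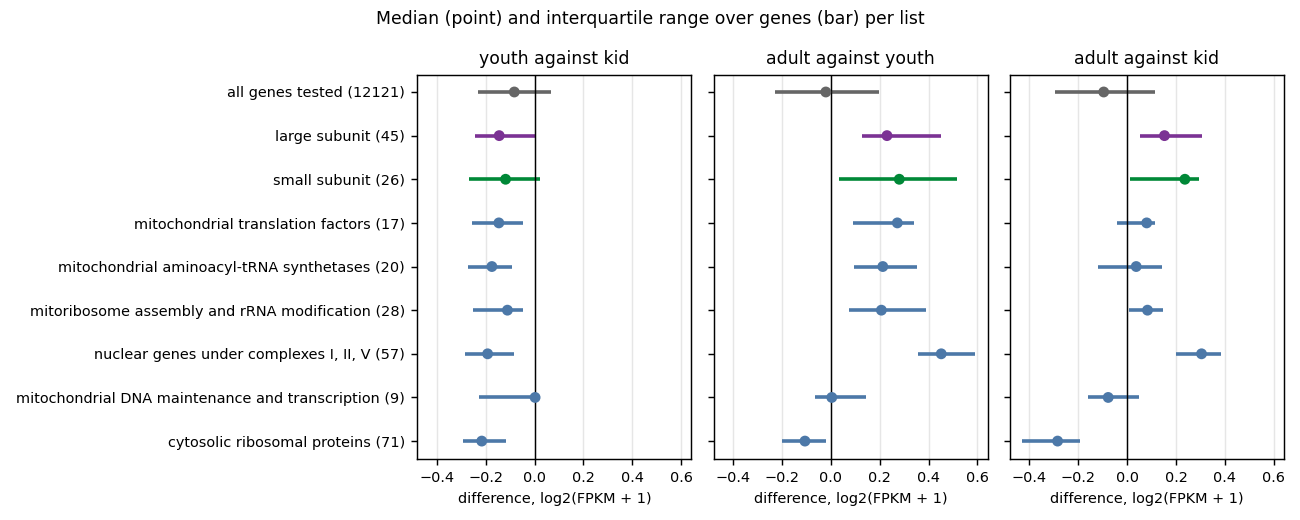
Median (point) and interquartile range over genes (bar) of the difference on the log2(FPKM + 1) scale for each gene list in the 3 comparisons, with the number of genes in brackets. In the middle panel, adult against youth, both subunits lie to the right of 0 (0.23 and 0.28), the nuclear genes listed under complexes I, II and V farther right (0.45), and the cytosolic ribosomal proteins left of 0 (-0.11).

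Among regulators of mitochondrial gene expression the 3 libraries differed widely. PPARGC1A, the coactivator PGC-1 alpha, had 26.1, 43.3 and 130.5 FPKM in the same order, so it was higher in youth than in kid while most ribosomal proteins were lower. The oestrogen-related receptors that it acts with had their lowest value in youth, as most members did: ESRRA stood at 45.7, 36.3 and 80.4 FPKM and ESRRG at 12.2, 3.40 and 21.4 FPKM. NRF1 (5.51, 3.75 and 4.62 FPKM) was also lowest in youth. GABPA (12.9, 11.0 and 9.99 FPKM) was lowest in adult, and MYC, a regulator of ribosome production, stood at 23.3, 16.1 and 5.77 FPKM. The mitochondrial transcription factor TFAM stood at 11.5, 11.6 and 11.6 FPKM, and the mitochondrial RNA polymerase POLRMT at 3.25, 3.90 and 5.30 FPKM. The 9 genes of mitochondrial DNA maintenance and transcription had medians of 0.00 from kid to youth and from youth to adult, with 1 beyond counting error from youth to adult.

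Markers of the cell types in the tissue also differed between the libraries. The summed FPKM of 7 of 7 skeletal muscle markers was 52959 in kid, 61819 in youth and 71302 in adult. For 6 of 7 macrophage markers the sum was 58.6, 66.2 and 32.3, for 5 of 5 fibroblast markers 827, 1010 and 697, for 5 of 5 endothelial markers 158, 140.0 and 135, and for 5 of 6 adipocyte markers 86.5, 30.2 and 46.1. None of these markers was at 0 in any library. Muscle markers, as summed FPKM, were thus highest and macrophage and fibroblast markers lowest in the adult library, where the ribosomal proteins were highest, and adipocyte markers were lowest in the youth library, where they were lowest. The part of cell composition in the differences was not tested.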

How the data were processed

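RNA-seq libraries of longissimus dorsi from 3 stages were analysed, 1 per stage. The authors deposited 1 table of FPKM values, with 1 column per stage matched to the labels by its letter. FastQC, TopHat2 and DESeq are named without version or role, per the submitters' processing notes; the counting method, genome build, annotation, strand use and handling of multiply matching reads were not given in the sources used here. Symbols came from a reference gene table of assembly ARS1.2 by gene number, and no coordinates were used. Whole reads and gene lengths were recovered from the ratios between columns, within 5e-05 of a read. Whole reads were found for the 16054 entries with a value in every library and for the 1157 with a value in 2, making up 95.3%, 94.9% and 96.3% of the totals for kid, youth and adult. Given the recovered totals, reads and length are the smallest whole numbers that fit, so that choice can make an interval too wide but not too narrow. The totals themselves are the largest that fit, and an error in them could act either way. PCR duplicates cannot be recognised, so intervals cover counting error only.

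Differences were taken on log2(FPKM + 1), which understates the change of low genes, among entries with a mean of at least 1 FPKM. A difference of 0.32 or more on that scale was counted as apart, and intervals were exact (Clopper-Pearson for the split of reads between 2 libraries). With 1 library per stage no p-value was computed. The rule for named proteins took the 5 most and 4 least abundant of each subunit, the 4 highest and 4 lowest in each comparison, members apart against the median's sign or in 1 direction at both steps, and MRPS18A, MRPS18B, MRPS18C, MRPS30 and MRPL12; from the other lists it took the most abundant and the extreme members and fixed regulators. Members, lists and rules were chosen with earlier results of these data known. The bacterial counterpart and structural groups were assigned from general knowledge after the values had been seen. Product text named a transcript variant for 24 of 72 entries, and whether FPKM refers to the gene or to that variant was not given in the sources used here. Python 3.11.15, numpy 2.4.6, pandas 2.3.3, scipy 1.17.1 and matplotlib 3.10.9 were used, and the steps were tested on simulated data.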

Additional observations from a re-analysis of the deposited data

How the results depend on the processing

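With 1 library per stage, variation between animals is not measured, and no library could be left out. No paired analysis was possible because each stage has 1 library. Across 10 other settings, 9 of them planned and 1 (without the 2 pseudogenes and MRPS36) chosen after seeing the data, 150 values stayed close to those reported, 21 moved, and no median of all members or of either subunit changed sign. Over the gene lists and places in the ribosome, some medians near 0 changed sign under a scaling, among them the peptidyl transferase core for youth against kid (-0.0078, and 0.083 under median-of-ratios scaling). The causes of the moves were not tested. Under median-of-ratios scaling the median of all members was -0.048 for youth against kid, with 5 members higher by 0.32 or more on the log2 scale and 3 lower, and 0.27 for adult against kid, with 0.35 in the small subunit and 33 members higher and 0 lower. Scaling to the mean FPKM sum gave 0.19 for adult against youth, 0.17 in the large subunit and 1 member lower, and 0.12 for adult against kid with 2 lower. A pseudocount of 0.1 FPKM gave 1 member lower in adult than in youth. A pseudocount of 5 FPKM gave 1 higher for youth against kid and 0 lower for adult against kid. Without a filter, 2 were lower for adult against kid. A mean of at least 5 FPKM, and leaving out the pseudogenes and MRPS36, each gave 1 higher for youth against kid. With the 44 members whose name is unique and whose product text has no addition, 1 was higher and 6 lower for youth against kid, and 0 lower for adult against kid. Among all genes 0.32 or more apart, the share that was higher moved from 28.8% to 51.5% (quantile normalization) and 48.6% (median-of-ratios) for youth against kid, from 30.3% to 51.6% and 51.2% for adult against kid, and from 48.6% to 37.7% for adult against youth when scaled to the mean FPKM sum.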

Other observations

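Beside the 72 entries, 13 were described as copies resembling a mitochondrial ribosomal protein. Of these, 4 had a mean of at least 1 FPKM and 4 were at 0 in all libraries. The reference table gives the symbol MRPL3 to one of them, at 27.7, 23.4 and 22.1 FPKM in kid, youth and adult. It gives no symbol to the member named MRPL3 from its product text, at 30.3, 22.9 and 28.6 FPKM. It gives the symbol MRPS36 to another, at 29.0, 23.4 and 39.9 FPKM, and none to the member of that name, at 42.5, 33.3 and 49.3 FPKM. Which entry of each pair is the gene was not tested. For both names the youth library was below the kid library in each entry, while the MRPL3 entries differed in adult. The entry with the symbol had a ratio of 0.942 to youth (0.784 to 1.13) and the member without it 1.2503 (1.07 to 1.46).

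Both remaining copies with a mean of at least 1 FPKM resembled MRPL17, which itself stood at 33.4, 32.4 and 37.0 FPKM. One stood at 3.27, 2.33 and 3.92 FPKM, lowest in youth as most of the family. The other stood at 1.71, 5.21 and 3.84 FPKM from 23, 66 and 60 reads, 3.04-fold higher in youth than in kid (1.87 to 5.13), the largest such ratio among the 4 copies. Whether reads were exchanged between copies and their namesakes was not tested.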
